A study of Mus musculus with 4 samples.

Results

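The genes described here are the amino acid transporter genes of the SLC1, SLC3, SLC6, SLC7, SLC36, SLC38 and SLC43 families. They were chosen by symbol (Slc1a, Slc3a, Slc6a, Slc7a, Slc36a, Slc38a or Slc43a followed by a digit) and by having at least 50 UMIs (unique molecular identifiers, counts of captured transcripts) over all cells. Of the 27998 genes measured, 66 carried such a symbol and 38 passed the minimum. All 38 were detected in ES-NMP and Epi-CE, and 37 in each of Epi-CE-T and Epi-NMP. The choice by symbol also took in genes that do not carry proteinogenic amino acids, such as the taurine transporter gene Slc6a6 and the creatine transporter gene Slc6a8. It also took in Slc7a6os, which is named for its position on the strand opposite to Slc7a6 and is not a transporter gene.

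Single-cell RNA sequencing was carried out on 4 mouse cell populations grown as in vitro models of neuromesodermal progenitors (NMPs), the axial progenitors that feed the spinal cord and the paraxial mesoderm, with 8700 cells loaded per population. ES-NMP cells came from E14Tg2a embryonic stem cells held in N2B27 basal medium, to which 3 µM CHIR99021, an activator of Wnt signalling through inhibition of GSK3, was added for the final part of a 72 h culture. Epi-CE cells, modelling the caudal epiblast, came from E14Tg2a epiblast stem cells (EpiSCs), which had been maintained in N2B27 with FGF2 and Activin A. Activin A was then withdrawn, FGF2 was raised to 20 ng/ml, and 3 µM of the same Wnt activator was added on the last day. Epi-CE-T cells received the Epi-CE protocol but were made from a Bra:GFP reporter line and sorted for GFP at 72 h. Epi-NMP cells were Epi-CE cells detached, reseeded and kept for 2 further days in 20 ng/ml FGF2 and 3 µM of the Wnt activator. All 4 groups had thus been exposed to the Wnt activator, and 3 of them to FGF2. Each group was 1 library, so condition, culture, library and, for Epi-CE-T, cell line and sort cannot be told apart, and no test across samples was possible.

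Amino acid transporters set which amino acids a cell can take up, exchange or release. Many SLC7 proteins are light chains that reach the plasma membrane only when bound to a heavy chain such as the one encoded by Slc3a2, and the Slc3a2-Slc7a5 pair exchanges glutamine for leucine and other large neutral amino acids. Leucine and arginine that enter the cell activate the growth kinase complex mTORC1, and a shortage of amino acids raises translation of the transcription factor ATF4, many of whose known targets are transporter and biosynthesis genes. Mouse embryonic stem cells are known for their dependence on threonine, and pluripotent cells for heavy use of glutamine.

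Levels are given as CPM, the UMIs of a gene per 1000000 UMIs of the library. They rest on barcodes marked TRUE in the deposited cell table, 8722 of 10579. These numbered 3116 in ES-NMP, 2386 in Epi-CE, 2109 in Epi-CE-T and 1111 in Epi-NMP, where they made up 42.3% of the barcodes against at least 94.8% elsewhere. Library totals ran from 22261452 to 71563029 UMIs and medians per cell from 19189 to 22613.5, so low members were measured least precisely in Epi-NMP. Ranges in brackets are exact 95% intervals that cover counting error only. Among the TRUE barcodes, 42 barcode sequences occurred in more than 1 library. As these are tag counts, levels are compared within a gene and not between genes. Where 4 values stand together, they follow the order ES-NMP, then Epi-CE, then Epi-CE-T, then Epi-NMP.

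Summed over the 38 members, the level was 804 CPM in ES-NMP, 866 in Epi-CE, 706 in Epi-CE-T and 651 in Epi-NMP. Of the members, 12 had their highest level in Epi-CE, 10 each in ES-NMP and Epi-CE-T, and 6 in Epi-NMP. Conversely, 15 had their lowest level in Epi-CE-T, 12 in Epi-NMP, 8 in ES-NMP and 3 in Epi-CE. Slc43a3, with 0 UMIs in both Epi-CE-T and Epi-NMP, was counted under Epi-CE-T. This ranking had no minimum of UMIs and was not made for all genes, so its counts are no result about the members. Most members were sparse: 24 stayed under 20 CPM in every library, and 5 of them stayed under 1 CPM.

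**Figure D1:**
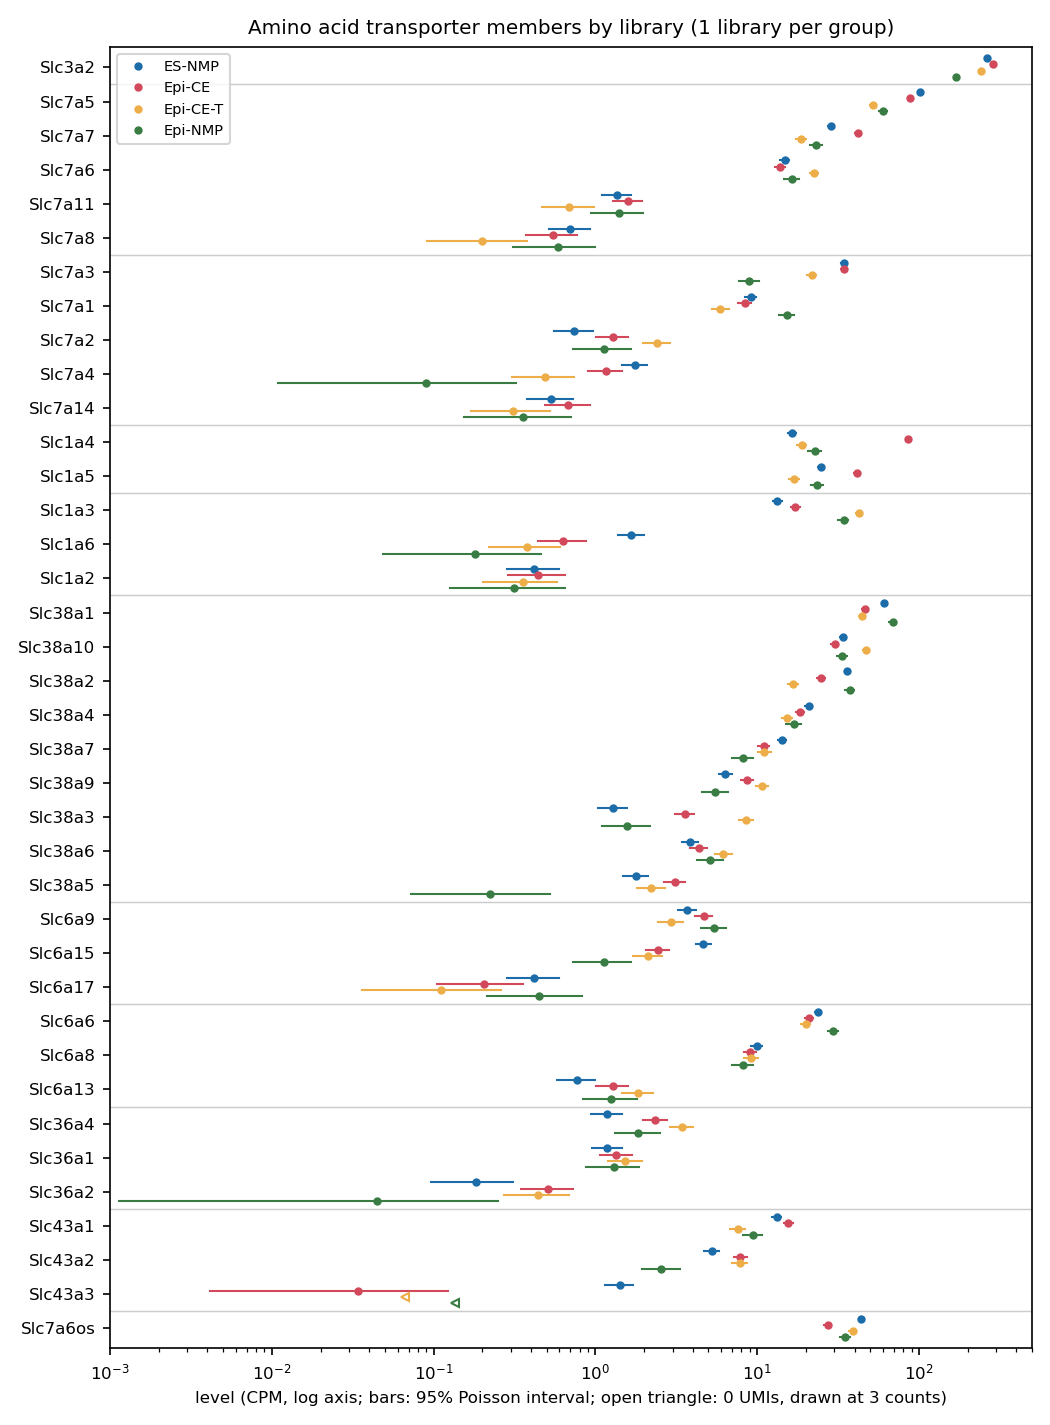
Level of each of the 38 members (rows, grouped by role) in CPM on a log axis, with 1 point per library and bars for the 95% Poisson interval; open triangles mark 0 UMIs and are drawn at 3 counts. The Epi-CE point of Slc1a4, at 85.4 CPM, stands well to the right of the other 3, which lie between 16.4 and 22.7, and the Epi-NMP points of Slc7a4 and Slc38a5 lie far to the left of the others.

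The heavy chain gene Slc3a2 (chr19:8706882-8723369, minus strand, mm10; the protein is CD98hc or 4F2hc) was at 264.5 CPM in ES-NMP, 285.3 in Epi-CE, 243.0 in Epi-CE-T and 169.4 in Epi-NMP. It was thus similar in the first 3 libraries and lowest in Epi-NMP, 1.68-fold (1.63 to 1.74) below Epi-CE. The light chain gene Slc7a5 (LAT1; chr8:121881150-121907694, minus strand), whose product carries large neutral amino acids, was at 101.8, 87.5, 52.3 and 60.2 CPM in the 4 libraries. Its levels in Epi-CE-T and Epi-NMP were both below those of the other 2 libraries, and Epi-CE-T was 1.67-fold (1.59 to 1.76) below Epi-CE.

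Slc7a7 and Slc7a6 encode the y+L system light chains, which exchange cationic for neutral amino acids, and their library orders ran opposite ways. Slc7a7 was at 28.6, 42.2, 18.7 and 23.0 CPM in the 4 libraries, so that Epi-CE was highest and Epi-CE-T was 2.25-fold (2.08 to 2.44) below it. Slc7a6 was at 14.8, 13.8, 22.5 and 16.4 CPM, with Epi-CE-T highest at 1.63-fold (1.49 to 1.79) above Epi-CE, while Epi-CE and ES-NMP differed by less than the counting error. Slc7a6os, its neighbour 2.01 kb away on the opposite strand of chromosome 8, was at 43.9, 27.4, 39.0 and 35.1 CPM. Strand settings of the counting are not given in the sources used here, and reads of Slc7a6 and Slc7a6os may not be fully separated. The cystine-glutamate exchanger gene Slc7a11 and the neutral amino acid exchanger gene Slc7a8 stayed under 2 CPM in every library.

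Slc7a11 and Slc7a7 were the members whose promoters held the core of the element bound by ATF4, searched as TGATGNAA on both strands over the 250 bases before each RefSeq start (GRCm38.p6). RefSeq promoter entries were found for 26 of the 38 members, and 2 of these 26 (7.69%) held the motif, against 3.91% of 27025 genes in all and 9 of 29 (31.0%) genes of the ATF4 list described further on. Counted by windows of that length, the motif was in 3 of 40 (7.5%) member windows and 3.45% of 32851 windows in all. Slc1a4, Slc3a2, Slc38a2 and Slc1a3 had entries without these letters, and Slc7a5, Slc7a3, Slc1a5 and Slc38a1 had no entry. A match is a run of letters and not a measured binding site. The matches are shown because they are what these 2 members share that the choice by symbol did not use, in capitals and 5′ to 3′ on the minus strand, on which both genes lie.
Slc7a11, chr3:50443632-50443719, mm10, matches 66 and 47 bases before the start: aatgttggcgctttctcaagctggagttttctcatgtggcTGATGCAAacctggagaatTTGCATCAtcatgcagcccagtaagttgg
Slc7a7, chr14:54418038-54418125, mm10, match 141 bases before one start: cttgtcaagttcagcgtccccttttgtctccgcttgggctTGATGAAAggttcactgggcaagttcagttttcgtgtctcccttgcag
Slc7a7, chr14:54417865-54417952, mm10, match 243 bases before another start: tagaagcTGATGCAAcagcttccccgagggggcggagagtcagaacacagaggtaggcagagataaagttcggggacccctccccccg

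Among the cationic amino acid transporter genes, which import arginine and lysine without a heavy chain, Slc7a3 (CAT3; chrX:101079210-101086020, minus strand) and Slc7a1 (CAT1) had opposite extremes in Epi-NMP. Slc7a3 was at 34.2, 34.4, 21.7 and 8.89 CPM in the 4 libraries, alike in the first 2 and 3.87-fold (3.34 to 4.50) lower in Epi-NMP than in Epi-CE. The ES-NMP level included the naive pluripotent-like cells described below, 21.8% of that library, where Slc7a3 was at 54.2 CPM. After each cell was thinned to 8000 UMIs, Slc7a3 was detected in 20.7%, 20.2%, 12.6% and 6.21% of cells. Without thinning, these shares were 43.6%, 43.3%, 26.7% and 12.8%. Slc7a1 was at 9.14, 8.39, 5.91 and 15.3 CPM, with Epi-NMP 1.82-fold (1.58 to 2.10) above Epi-CE. Slc7a4, a member of this group by sequence with no established transport activity, was at 1.76, 1.16, 0.489 and 0.0898 CPM. The Epi-NMP value of Slc7a4 rested on 2 UMIs and was 19.6-fold (5.31 to 164) below ES-NMP.

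The ASCT genes encode exchangers of small neutral amino acids, alanine, serine and cysteine for Slc1a4 (ASCT1) and also glutamine for Slc1a5 (ASCT2). Slc1a4 (chr11:20302180-20332713, minus strand) had the widest spread between libraries among members at 20 CPM or more. It was at 16.4 (15.5 to 17.4), 85.4 (83.0 to 87.8), 18.8 (17.6 to 20.1) and 22.7 (20.7 to 24.8) CPM in the 4 libraries. Epi-CE alone was high: 5.20-fold (4.88 to 5.55) above ES-NMP, with Epi-CE-T 4.53-fold (4.22 to 4.88) and Epi-NMP 3.76-fold (3.43 to 4.13) below it. At 8000 UMIs per cell, Slc1a4 was detected in 11.4%, 44%, 10.7% and 15.0% of cells, and without thinning in 27.5%, 71.0%, 22.3% and 29.2%. Slc1a5 was at 24.8, 41.6, 16.9 and 23.4 CPM, with the same library highest and a smaller difference, 1.68-fold (1.58 to 1.78) over ES-NMP.

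The glutamate and aspartate transporter gene Slc1a3 (GLAST) was highest in Epi-CE-T and lowest in ES-NMP. It was at 13.3, 17.3, 42.8 and 34.2 CPM in the 4 libraries, so that Epi-CE-T was 2.48-fold (2.30 to 2.68) and Epi-NMP 1.98-fold (1.80 to 2.18) above Epi-CE, which was itself 1.3-fold (1.18 to 1.42) above ES-NMP. Slc1a6 (EAAT4) was sparse and highest in ES-NMP, at 1.66, 0.631, 0.378 and 0.18 CPM, and its Epi-NMP value rested on 4 UMIs.

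The SLC38 genes encode sodium-coupled neutral amino acid transporters, several of which carry glutamine. Slc38a1 (SNAT1) was at 61.1, 46.2, 44.5 and 68.8 CPM and Slc38a2 (SNAT2) at 36.1, 24.9, 16.6 and 37.3 CPM in the 4 libraries. Both were higher in the 2 NMP libraries than in the 2 caudal epiblast libraries. Slc38a1, Slc38a2 and Slc38a4 lie on the minus strand of chromosome 15, with gaps of 44.5 kb and 295 kb, but Slc38a4 varied little between libraries, at 20.8, 18.4, 15.3 and 16.8 CPM. Slc38a10 was at 34.1, 30.1, 47.4 and 33.4 CPM, highest in Epi-CE-T. Slc38a5 (SNAT5) was at 1.77, 3.10, 2.22 and 0.225 CPM and was 13.8-fold (5.81 to 43.1) lower in Epi-NMP, on 5 UMIs, than in Epi-CE. The other 4 SLC38 members stayed between 1.29 and 14.3 CPM.

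Of the SLC6 members, Slc6a6 was at 23.8, 21, 19.9 and 29.5 CPM, highest in Epi-NMP. Slc6a15 (B0AT2), which carries branched-chain amino acids and proline, was at 4.65, 2.44, 2.11 and 1.12 CPM and was 4.14-fold (2.76 to 6.50) lower in Epi-NMP than in ES-NMP. Slc43a3, which encodes a nucleobase transporter within an otherwise amino acid family, had 101, 2, 0 and 0 UMIs, or 1.41 CPM in ES-NMP and 0.0341 in Epi-CE. Its level in Epi-CE was 41.4-fold lower than in ES-NMP (11.2 to 346), and in Epi-NMP, against a floor of 3 counts in that library, it was at least 10.5-fold lower. Slc43a1 and Slc43a3 lie 73.0 kb apart on chromosome 2. The 3 SLC36 members, genes of proton-coupled transporters, stayed under 4 CPM in every library.

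The 4 library comparisons were read against all genes. A member was counted as higher or lower at 1.5-fold or more, among members with 50 UMIs or more over both libraries. Epi-CE over ES-NMP set EpiSC-derived caudal epiblast-like cells against stem-cell-derived NMPs. Of 36 members 8 were higher, where 21.1% of all genes were, and 5 were lower, where 16.2% were. The median log2 ratio was 0.09 for members and 0.03 for all genes, so as a group the members lay close to the background. Slc1a4 and Slc1a5 were among the higher members and Slc43a3, Slc1a6, Slc6a15, Slc7a6os and Slc7a4 were the lower ones. With each cell thinned to 8000 UMIs, 3 members were lower, and the log2 ratio of Slc7a4 was 0.0107 in place of -0.60. The share of all genes was not computed after thinning. Of ES-NMP cells, 21.8% were in a naive pluripotent-like cluster, a state that was not found in Epi-CE. Without these cells the log2 ratio of Slc1a4 was 2.17, against 2.38 with them, and that of Slc38a5 was 0.44, against 0.81.

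Epi-CE-T over Epi-CE set the sorted reporter cells against the unsorted population. In the clustering described below, these 2 libraries held largely different states. The node or notochord-like clusters 16 and 18 held 529 and 1067 Epi-CE-T cells but 18 and 10 Epi-CE cells. Cluster 12, the largest of Epi-CE, held 879 Epi-CE and 3 Epi-CE-T cells. The part of this in the ratios was not tested. Of 34 members 5 were higher, against 18.1% of all genes, and 11 were lower, against 13.1%. The median log2 ratio was -0.20 for members and 0.04 for all genes. The lower members included Slc1a4, Slc1a5, Slc7a7, Slc7a5 and Slc7a3, and the higher ones Slc1a3, Slc7a6 and Slc38a10.

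Epi-NMP over Epi-CE set cells after further culture against their source population. Of 31 members 3 were higher, against 14.9% of all genes, and 12 were lower, against 22.7%. The median log2 ratio was -0.19 for members and -0.01 for all genes. The higher members were Slc1a3, Slc7a1 and Slc38a2. Slc38a2, at 1.5-fold (1.38 to 1.64), lay at the edge of the 1.5-fold limit. Over all barcodes its log2 ratio was 0.45, against 0.59 over TRUE barcodes.

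Epi-NMP over ES-NMP set the 2 NMP models side by side. Of 34 members 5 were higher, against 16% of all genes, and 10 were lower, against 18.4%. The median log2 ratio was -0.15 for members and 0.02 for all genes. Slc1a3 was 2.57-fold (2.33 to 2.83) higher, and Slc7a3 was 3.85-fold (3.33 to 4.47), Slc7a5 1.69-fold (1.59 to 1.79) and Slc3a2 1.56-fold (1.51 to 1.62) lower. Of the 4 comparisons, 3 used the same Epi-CE library, so they are not independent of each other.

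**Figure D2:**
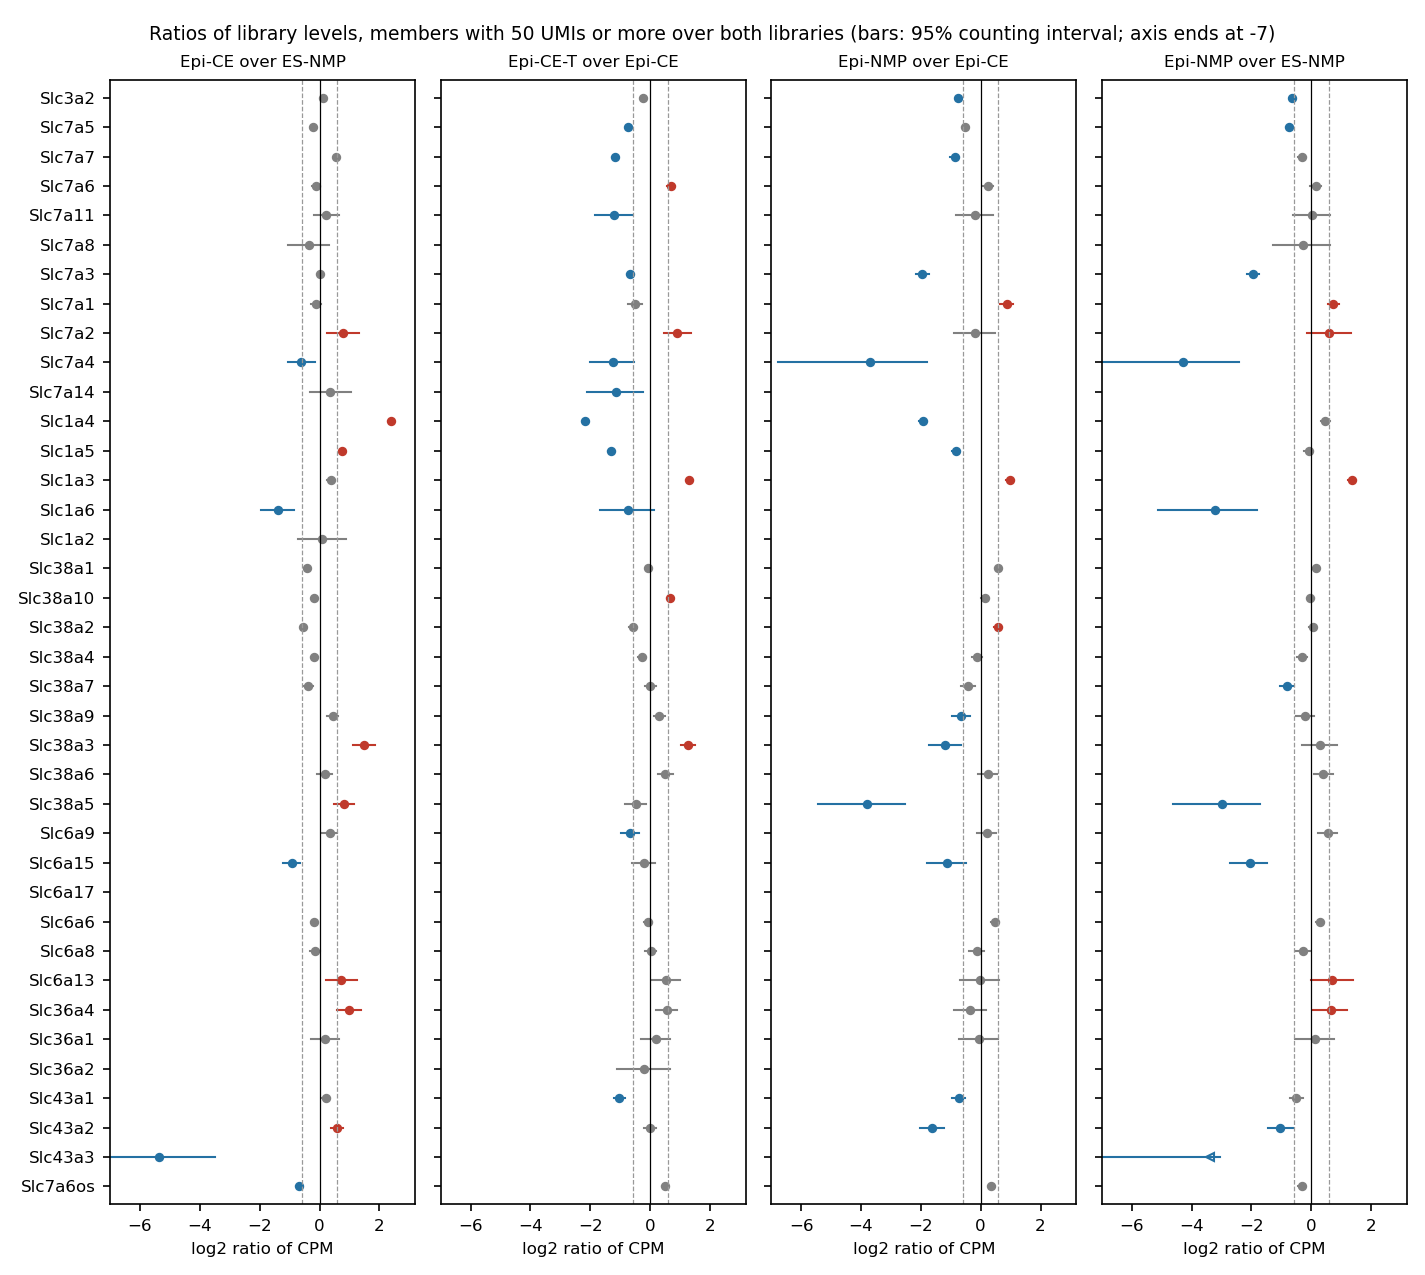
Log2 ratio of CPM for each member with 50 UMIs or more over both libraries, in the 4 comparisons; bars are 95% counting intervals, dashed lines mark 1.5-fold, red and blue points are higher and lower by that limit, and an open triangle marks a bound. Slc1a4 lies at 2.38 for Epi-CE over ES-NMP and at -2.18 for Epi-CE-T over Epi-CE, and Slc1a3 lies on the right of 0 in all 4 panels.

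Cell states were taken from a joint clustering of the 8722 cells made without any member or listed amino acid gene, so that the members did not define them. It gave 21 groups of at least 50 cells of 1 library in 1 cluster, which held 8567 cells. Clusters were named by marker genes where these allowed, and by number otherwise. In every state comparison the cluster was set against the other cells of its own library. Members were counted where the library's mean level predicted 50 UMIs or more in the cluster. Counts are given below for 9 of the 21 groups only. In Epi-CE-T cluster 16, for which they are not given, the median log2 ratio was -0.20 for members and -0.02 for all genes.

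Slc1a4 was high across most Epi-CE states rather than in 1 of them. In 6 of the 7 Epi-CE groups it lay between 49.4 and 107 CPM, above the highest group of any other library, which was Epi-NMP cluster 8 at 42.2 CPM. The exception was Epi-CE cluster 14, an unnamed cluster of 273 cells led by Sncb and Enpp2, at 30.1 CPM, 3.07-fold (2.67 to 3.55) below the other Epi-CE cells. In that cluster 1 member was higher and 3 were lower of 20, where 3.62% and 7.8% of all genes were. That cluster also had the lowest level of the caudal gene T in Epi-CE, 99.8 CPM. At a coarser clustering its best matching cluster overlapped it by only 0.143 (shared over joint cells), and the log2 ratio of Slc1a4 was then 0.59 in place of -1.62. In ES-NMP, Slc1a4 ranged from 7.45 CPM in the naive pluripotent-like cells to 30.1 in the neural-like cells.

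**Figure D3:**
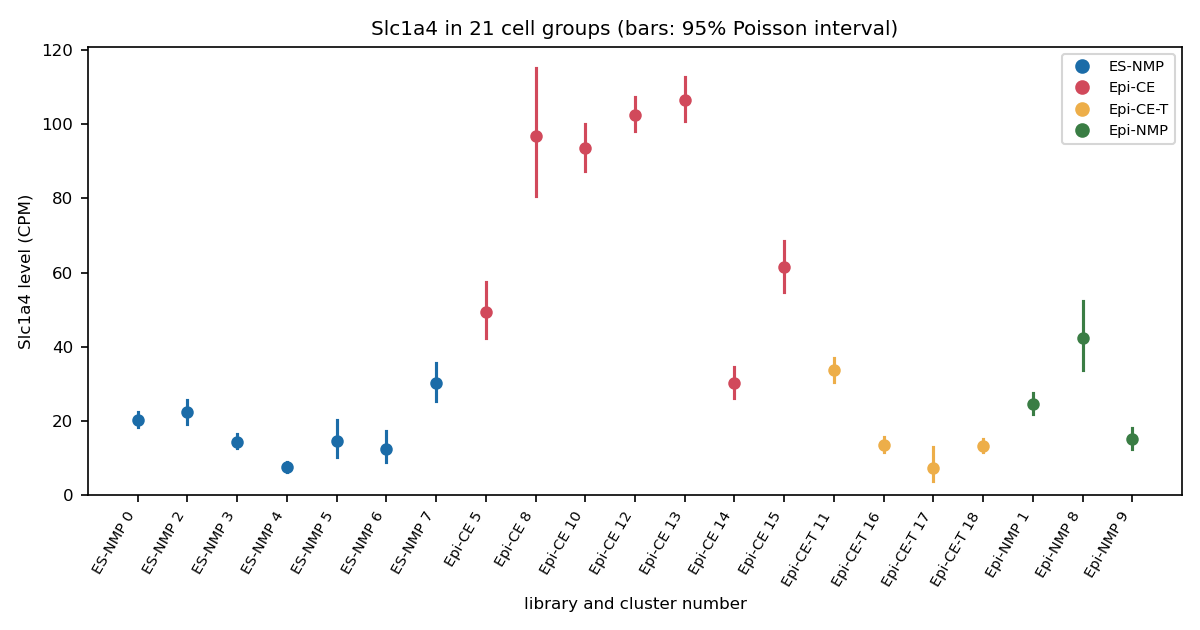
Slc1a4 level in CPM (vertical axis, from 0) in each of the 21 cell groups, coloured by library, with 95% Poisson bars. All Epi-CE groups other than cluster 14 lie at 49.4 CPM or more, and all groups of the other libraries lie at 42.2 or less.

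In ES-NMP, the naive pluripotent-like cluster 4 (679 cells, led by Zfp42 and Dppa3) had higher Slc7a3 (1.91-fold, 1.75 to 2.07), Slc6a6 (1.89-fold) and Slc7a7 (1.79-fold). It had lower Slc6a9, the glycine transporter gene GlyT1 (2.75-fold), Slc1a4 (2.55-fold), Slc7a6 (2.25-fold), Slc43a1 (1.98-fold), Slc1a3 (1.89-fold) and Slc38a4 (1.75-fold). That is 3 members higher and 6 lower of 23, where 9.8% and 25% of all genes were. The neural-like cluster 7 (222 cells, led by Crabp1 and Msx3) had Slc7a7 at 4.42 CPM against 30.3 in the other ES-NMP cells, 6.85-fold (4.47 to 11.1) lower, and Slc1a4 1.95-fold (1.62 to 2.32) higher. There 2 members of 16 were higher and 2 lower, where 5.18% and 8.82% of all genes were. Slc7a7 was thus lowest in the neural-like cells and highest, at 48.0 CPM, in the primed epiblast-like cells of that library.

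The paraxial mesoderm-like clusters of Epi-CE and Epi-NMP were different clusters, and in both Slc38a4 was higher. In Epi-CE cluster 15 (212 cells), Slc38a4 was at 49.4 CPM against 15.3 in the other cells, 3.22-fold (2.79 to 3.71), with Slc6a6 2.66-fold and Slc38a2 1.58-fold higher and Slc7a3 1.79-fold lower. This made 3 members higher and 1 lower of 16, where 4.99% and 9.07% of all genes were. In Epi-NMP cluster 9 (385 cells), Slc38a4 was at 29.9 against 9.91 CPM, 3.02-fold (2.44 to 3.74), with Slc7a7 1.79-fold and Slc1a5 1.60-fold higher and Slc1a4 1.78-fold lower. This made 3 higher and 1 lower of 18, where 3.8% and 5.26% of all genes were. The other Epi-NMP cells were mostly those of cluster 1, at 6.96 CPM, while cluster 8, which was not paraxial mesoderm-like, was at 25.4. Slc38a4 was also high in other groups, at 61.1 CPM in the contractile-like cells of ES-NMP (3.14-fold above its other cells), 43.6 in the unnamed Epi-CE-T cluster 17 and 42.4 in the unnamed ES-NMP cluster 6. Of these, ES-NMP cluster 6 had paraxial mesoderm markers that summed to 755.0 CPM, against 659.0 in Epi-NMP cluster 9. The lowest group of Slc38a4 was Epi-NMP cluster 1. Its small differences between whole libraries therefore lay beside larger ones between states within them.

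Epi-NMP cluster 1 (570 cells, led by Hoxb5os and Hoxc10) had Slc38a4 4.11-fold (3.21 to 5.30) and Slc7a7 2.19-fold lower. Slc7a3 was 2.25-fold (1.64 to 3.14), Slc7a1 1.70-fold, Slc7a5 1.68-fold and Slc6a9 1.63-fold higher. There 4 members were higher and 3 lower of 21, where 4.22% and 7.95% of all genes were. Epi-NMP cluster 8 (136 cells, led by Klhl6, with T at 952 CPM) was low in the heteromeric pair: Slc7a5 was at 16.8 against 64.5 CPM in the other cells, 3.84-fold (2.72 to 5.6) lower, and Slc3a2 at 93.1 against 176.8, 1.90-fold (1.64 to 2.22) lower. Slc1a3 was 2.01-fold (1.64 to 2.44) higher. In all, 1 member was higher and 4 lower of 8, where 7.84% and 15.4% of all genes were. Slc7a3 had 0 UMIs in these 136 cells, which at 3 counts allows a level of up to 1.53 CPM, against 8.89 CPM in the whole library. The median depth of the cluster was 13399 UMIs, against 20357 in cluster 1, and its part in these values was not tested.

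In Epi-CE-T, cluster 11 (407 cells, 19.3% of the library) was led by Adm, Ppp1r3c and Egln3, genes known to respond to low oxygen, and was left unnamed. Slc7a5 was at 120.4 CPM there against 26.5 in the other cells, 4.54-fold (4.17 to 4.94), and Slc3a2 at 404.3 against 182.0, 2.22-fold (2.14 to 2.31). Slc1a5 was 4.21-fold (3.63 to 4.89), Slc7a3 2.61-fold, Slc7a1 2.57-fold, Slc1a4 2.54-fold and Slc7a7 2.02-fold higher. Slc1a3 was 2.43-fold, Slc38a3 2.17-fold and Slc38a6 2.06-fold lower. These were 7 members higher and 3 lower of 22, where 9.3% and 16.2% of all genes were.

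Although the library was sorted for the T reporter, T was at 41.1 CPM in cluster 11, against 447.0 and 608.4 in the 2 node or notochord-like clusters 16 and 18. The 11 node and notochord markers summed to 149.4 CPM in cluster 11, with 1 of them at 0, against 673.1 and 901.5 in clusters 16 and 18, with none at 0. The 10 primed epiblast markers summed to 386.5 CPM in cluster 11, against 62.2 and 72.6, and the 11 neural markers to 212.9 CPM, against 65.2 and 42.4. Median depth was 28699 UMIs in cluster 11 and 15468 in cluster 18, and its part in these values was not tested. In cluster 18 (1067 cells), 2 members were higher and 9 lower of 24, where 10.3% and 10.1% of all genes were. Slc7a5 was 3.57-fold (3.18 to 4.00) lower there and Slc1a3 1.77-fold higher. The other cells included cluster 11, with Slc7a5 at 120.4 CPM, so the contrasts of clusters 11 and 18 are not independent. A finer clustering divided the cells of cluster 18, and no member was higher and 5 were lower in the best matching cluster. The share of all genes was not computed for that cluster. The Slc7a5 level of the whole Epi-CE-T library, 52.3 CPM, thus lay between 120.4 in cluster 11, above the 87.5 of whole Epi-CE, and 20.4 in cluster 18.

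**Figure D4:**
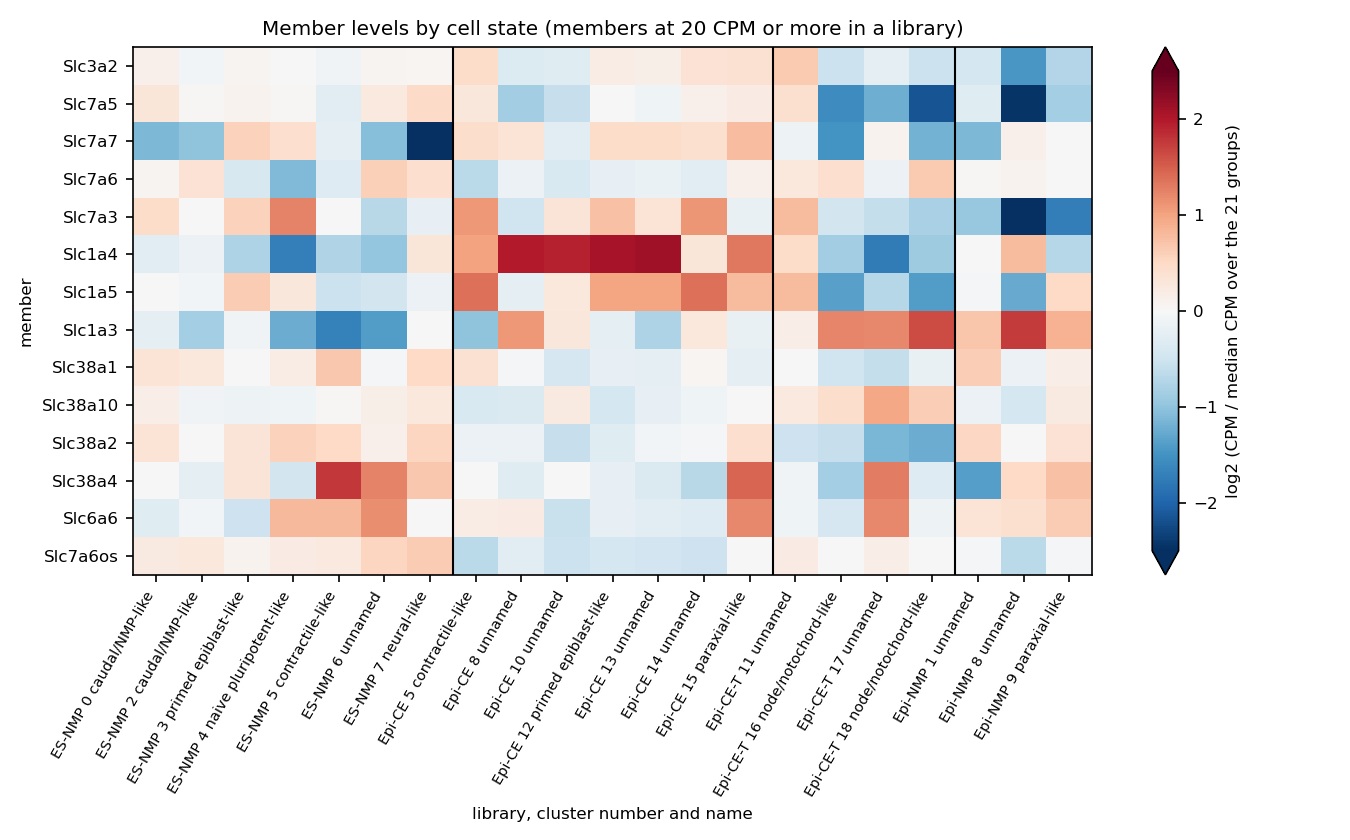
Level of the members with 20 CPM or more in at least 1 library (rows) in the 21 cell groups (columns, library and cluster), as log2 of the CPM over the member's median across groups; a group with 0 UMIs is set to 3 counts and the colour scale ends at -2.5 and 2.5. The Epi-CE block is red for Slc1a4 in 6 of 7 columns, and Slc7a5 is dark blue in Epi-CE-T cluster 18 (20.4 CPM) and Epi-NMP cluster 8 (16.8 CPM).

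Across the 21 groups, the levels of Slc3a2 and Slc7a5 went together, with a Pearson r of 0.84 and a Spearman rho of 0.84. Within the 7 groups of ES-NMP r was 0.76, and within the 7 of Epi-CE it was 0.99. For Slc3a2 and the other light chain genes r was lower over the 21 groups, at 0.32 for Slc7a7, 0.34 for Slc7a11, -0.16 for Slc7a8 and -0.18 for Slc7a6. Within Epi-CE it was 0.69 for Slc7a7. Slc7a8 and Slc7a11 did not exceed 1.25 and 2.91 CPM in any group and had 0 UMIs in at least 1, so counting error limits their r. Slc3a2 also went with some members that need no heavy chain: over the 21 groups r was 0.74 for Slc7a3 and 0.72 for Slc1a5. Within Epi-CE these were 0.63 and 0.90, and within ES-NMP 0.01 and 0.27. For other such members r was low over the 21 groups, at 0.15 for Slc1a4, 0.18 for Slc7a1 and 0.06 for Slc38a2. Within Epi-CE it was -0.69 for Slc1a4, 0.20 for Slc7a1 and 0.54 for Slc38a2. Of genes outside the families, Slc3a2 went with Asns, the asparagine synthetase gene, over all groups (r 0.78, rho 0.82) and in Epi-CE (r 0.74), but not within ES-NMP (r -0.06). Slc7a5 went with Psat1, another gene outside the families, at r 0.84 over all groups, 0.80 within ES-NMP and 0.58 within Epi-CE. Spearman rho for that pair was 0.74, 0.71 and 0.11 in the same order, so the value within Epi-CE did not hold by rank. For Slc7a5 and Asns r was 0.60 over all groups, -0.13 within ES-NMP and 0.77 within Epi-CE. Of the neighbours on chromosome 15, Slc38a1 and Slc38a2 had an r of 0.71 over the 21 groups, 0.51 within ES-NMP and 0.06 within Epi-CE. These are descriptions: the groups share libraries and depth, and are not independent samples.

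**Figure D5:**
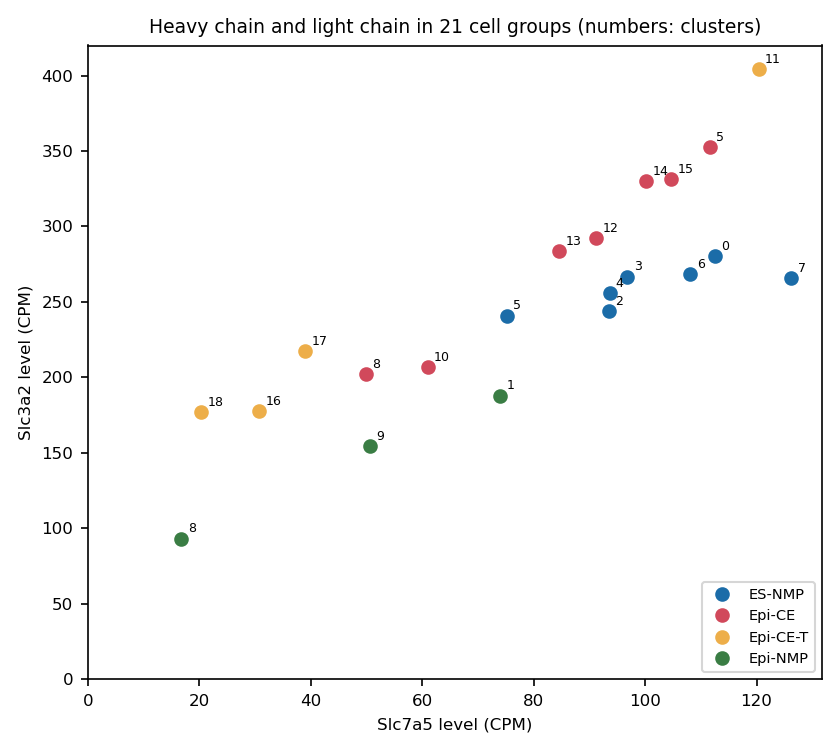
Slc3a2 level (vertical axis, CPM) against Slc7a5 level (horizontal axis, CPM) in the 21 cell groups, coloured by library and labelled with the cluster number. Epi-NMP cluster 8 is lowest on both axes, at 16.8 and 93.1 CPM, and Epi-CE-T cluster 11 is highest for Slc3a2, at 404.3 CPM.

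Clusters 5 and 8 each held cells of 2 libraries and gave comparisons within a cluster. In the contractile-like cluster 5 (92 ES-NMP and 96 Epi-CE cells), Slc1a5 was 3.77-fold (2.63 to 5.54), Slc1a4 3.40-fold (2.35 to 5.04), Slc7a3 2.11-fold and Slc7a7 1.60-fold higher in Epi-CE. Slc38a4 was 3.39-fold (2.5 to 4.64), Slc7a6os 1.89-fold, Slc38a2 1.56-fold and Slc6a6 1.55-fold lower. Of 13 members with 100 UMIs or more, 4 were thus higher and 4 lower, where 8.87% and 14.8% of all genes were. In cluster 8 (69 Epi-CE and 136 Epi-NMP cells), Slc1a4 was 2.29-fold (1.73 to 3.06) and Slc3a2 2.17-fold (1.79 to 2.64) lower in Epi-NMP, and Slc1a3 was 1.58-fold (1.13 to 2.23) higher. These were 1 higher and 2 lower of 5, where 7.15% and 8.37% of all genes were. Cells of the same cluster were not alike in their markers between libraries. In cluster 5 the contractile markers summed to 6617 CPM in ES-NMP and 3015 in Epi-CE, and the caudal epiblast markers to 349.4 and 767.0. In cluster 8 the primed epiblast markers summed to 319.7 CPM in Epi-CE and 23.4 in Epi-NMP. The part of these differences in the ratios was not tested.

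Related amino acid genes were taken from fixed lists. Some genes are in more than 1 list, such as Asns and Psat1, which are in the ATF4 list and in an enzyme list. Counts of different lists are therefore not independent. Of 36 genes of the ATF4 pathway, the response to amino acid shortage, 15 were higher and 1 lower in Epi-CE over ES-NMP, with a median log2 ratio of 0.29. Ddit4, an mTORC1 inhibitor, was 4.45-fold, and the transcription factor genes Atf5 and Atf3 3.16-fold and 3.12-fold higher. In Epi-CE-T over Epi-CE, 2 of 35 were higher and 14 lower (median -0.45), with Atf3 6.58-fold and Cth, an enzyme of cysteine synthesis, 6.42-fold lower, and Stc2 2.76-fold higher. In Epi-NMP over Epi-CE, 0 of 35 were higher and 16 lower (median -0.48), with Ddit4 13.2-fold, Trib3 6.33-fold and Nupr1 3.74-fold lower. In Epi-NMP over ES-NMP, 1 of 35 was higher and 8 were lower (median -0.22). The median over all genes lay between -0.01 and 0.04 in these comparisons. For this list and those that follow, the shares of all genes were, in the same order of comparisons, 21.1%, 18.1%, 14.9% and 16% higher and 16.2%, 13.1%, 22.7% and 18.4% lower, and a count near these shares is no result about a list. Within Epi-CE-T, Asns was at 594.5 CPM and Trib3 at 54.3 in cluster 11, and at 188.2 and 4.79 in cluster 18.

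For the other 6 lists the counts are given in the order Epi-CE over ES-NMP, Epi-CE-T over Epi-CE, Epi-NMP over Epi-CE and Epi-NMP over ES-NMP. Of 33 genes for amino acid sensing by mTORC1, 1, 5, 4 and 1 were higher and 3, 1, 3 and 3 lower. Deptor, an mTOR inhibitor, was 5.46-fold lower in Epi-CE-T than in Epi-CE. Of 15 or 16 carriers in organelles and of other families, 4, 2, 3 and 0 were higher and 4, 2, 4 and 3 lower, and Slc16a10, an aromatic amino acid carrier gene, was 3.30-fold higher in Epi-CE than in ES-NMP and 8.36-fold lower in Epi-CE-T than in Epi-CE.

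Of 16 or 17 enzymes of serine, glycine and threonine, 1, 1, 2 and 0 were higher and 5, 5, 1 and 6 lower in the same order. Tdh, threonine dehydrogenase, was at 205.5 CPM in ES-NMP and 0.443 in Epi-CE, and it was among the leading genes of the naive pluripotent-like ES-NMP cluster, a state not found in Epi-CE. Of 16 enzymes of glutamine, glutamate, proline and aspartate, 3, 0, 1 and 1 were higher and 2, 4, 5 and 4 lower, and Asns was 2.77-fold lower in Epi-NMP than in Epi-CE. Of 21 or 22 enzymes of branched-chain amino acids, arginine, cysteine and creatine, 5, 3, 4 and 3 were higher and 10, 4, 6 and 10 lower, with Arg1, arginase, 6.90-fold higher in Epi-NMP than in Epi-CE. Of 12 NRF2 antioxidant targets, 0, 0, 1 and 0 were higher and 5, 5, 4 and 6 lower, with Nqo1 2.94-fold lower in Epi-CE than in ES-NMP.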

How the data were processed

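The submitters' processing notes name build mm10, Seurat 2.0 and Cell Ranger 1.3.1. Annotation, multi-mapping and strand settings are not given in the sources used here. Whole-number UMI counts per gene and barcode, before normalization, were deposited by the authors with a cell table that gives each barcode's library and a TRUE or FALSE mark whose meaning is not stated there. TRUE barcodes had at least 8011 UMIs, and 80 of the 1857 FALSE ones passed the same minimums. The members and lists were chosen with earlier results of these data known.

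Counts of TRUE barcodes were summed per library or cluster and divided by the total. Levels carry exact Poisson, ratios exact conditional-binomial and shares exact Clopper-Pearson 95% intervals. Intervals and floors (3 counts) cover counting error only, and no p-values were computed. The ratio calculation was run on simulated counts with counting error alone, the model that the intervals assume. That run therefore says nothing about variation between libraries or cells. A member was named at 20 CPM or more in a library, or at 4-fold or more in a comparison with 100 UMIs, and a neighbouring member may be named beside it. Slc7a1, Slc7a8, Slc7a11, Slc6a8, Slc6a9, Slc38a3, Slc38a6 and Slc43a1 fall outside this rule and were chosen after their values were seen. From each list up to 3 genes of largest ratio with 200 UMIs were named.

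Cells were clustered with scanpy 1.11.5 (2000 variable genes, 30 components, 15 neighbours, Leiden resolution 1, with 215 amino acid genes left out). Details of cluster naming were set after the clusters were seen. Scrublet called 51 cells (0.585%) doublets, and none was removed. Python 3.11.15 and SciPy 1.17.1 were used. Alternatives used TMM factors (edgeR 4.0.16) and DESeq2 1.42.0 size factors for scaling only. Gene positions are from GENCODE M21.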

Additional observations from a re-analysis of the deposited data

How the results depend on the processing

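No paired analysis was possible because each group had 1 library. The log2 ratios of members were recomputed under 8 alternatives, with 73 ratios in most of them. The largest shift was 0.917 with counts thinned to 8000 UMIs per cell, 0.860 without the 5% of cells of highest Scrublet score, 0.747 as the mean of per-cell CPM, 0.464 over all barcodes, 0.364 without naive cells and at most 0.071 with TMM factors, DESeq2 size factors or other totals. Ratios moved beyond their counting interval for 14 of 65 after thinning, 11 of 73 as the per-cell mean, 14 of 38 without naive cells, at most 2 of 73 under each other setting, and 1 changed direction, after thinning: Slc7a4 in Epi-CE over ES-NMP was 0.0107 in place of -0.60.

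The following values moved beyond the limit of 1.5 times for counts or beyond the counting interval, and the cause was not tested. Shares of all genes were not computed under any of the alternatives, including those for the states. Thinning and the minimum of 200 UMIs also change how many genes are counted. The counts below therefore cannot be read against a background, nor as a weaker or stronger result than in the main comparisons. For Epi-CE over ES-NMP, the median of the members was 0.0499 with DESeq2 size factors, 0.0343 as the mean of per-cell CPM, -0.11 after thinning, 0.0591 with a minimum of 200 UMIs and 0.0571 without naive pluripotent-like cells, so its sign turned after thinning. Lower members there numbered 3 after thinning and 2 with the minimum of 200 UMIs. At 2-fold, 2 were higher and 2 lower. The ATF4 list had a median of 0.21 after thinning, and 8 genes were higher at 2-fold. For Epi-CE-T over Epi-CE, 8 members were higher after thinning, 7 were lower with the minimum of 200 UMIs, and 2 were higher and 7 lower at 2-fold. Its ATF4 median was -0.52 with TMM factors, -0.59 as the per-cell mean and -0.57 after thinning, and 1 gene was higher and 4 lower at 2-fold. For Epi-NMP over Epi-CE, 0 members were higher and 7 lower at 2-fold. For Epi-NMP over ES-NMP, 3 members were higher after thinning and without naive cells, 2 higher and 6 lower with the minimum of 200 UMIs, and 1 higher at 2-fold. Its ATF4 list had 0 genes higher with TMM factors, DESeq2 size factors, at 2-fold and without naive cells, and 3 lower at 2-fold.

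Of 121 state ratios, 92 kept their value at Leiden resolution 0.5, 108 at 1.5 and 106 with the members kept in the clustering. Of 27 pairs of state and setting, 5 had a best matching cluster that overlapped the state by less than 0.5. These were Epi-CE cluster 14 at resolution 0.5 (0.143) and with members kept (0.281), and Epi-CE-T cluster 18 with members kept (0.479). Epi-NMP clusters 8 (0.333) and 9 (0.474) at resolution 0.5 were the others. For such pairs the counts below refer in part to other cells. In Epi-CE cluster 14, 5 members were higher and 5 lower at resolution 0.5, where the log2 ratio of Slc1a4 turned to 0.59, 0 were higher at 1.5 and 3 with members kept. In Epi-CE-T cluster 18, 0 were higher and 5 lower at 1.5. In Epi-NMP cluster 8, 3 were higher at 0.5 and 2 at 1.5, and in cluster 9, 4 were lower at 0.5. Unthinned shares, which rise with depth, were 43.6%, 43.3%, 26.7% and 12.8% for Slc7a3 and 27.5%, 71.0%, 22.3% and 29.2% for Slc1a4, in the library order used above. Counts of 5 or fewer in Epi-NMP limit Slc7a4, Slc1a6 and Slc38a5.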
